A study of Mus musculus with 4 samples.

Results

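S100a8 and S100a9 are neighbouring genes of the S100 cluster on mouse chromosome 3, and the chromatin around them was described as an interval of mm9 from 89700001 to 91000000, with both genes at about 90.47 to 90.52 Mb. The interval was chosen because its insulation scores differed between genotypes in these libraries, so that difference is given below as a description. Adjusted p-values of a genome-wide fit are printed to show where the called bins begin and end, and they support nothing about a region chosen on the same values. It held 65 of the 117252 bins of 20 kb that were scored in all 4 libraries, 130 of the 227822 bins of 10 kb and 7 of the 12398 bins of 200 kb. The 20 kb bins that cover the gene position are the 3 bins from 90460001 to 90520000.

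The libraries were made by Hi-C, in which DNA is cut (here with DpnII), neighbouring ends are ligated and the joined pairs are sequenced as a record of contacts. The cells were mouse bone marrow progenitors, enriched by removing cells that carry lineage markers. One pair of libraries was labelled Stag2 wildtype and the other Stag2 knock-out, and no treatment was named in the labels. The sources used here do not give the deletion, any Cre driver, the strain or the age of the animals, nor was it said that both libraries of a group are from different animals, so their spread may be technical.

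The proteins of S100a8 and S100a9 bind calcium, and together they form calprotectin, a heterodimer that neutrophils and monocytes hold in large amounts and release during inflammation. Both genes are widely used as markers of maturing granulocytes. Stag2, like its alternative Stag1, is a subunit of cohesin, which forms chromatin loops by extrusion and tends to halt at DNA-bound CTCF. The insulation score of a bin is low where few contacts cross it, and a local minimum marks a boundary between domains. Hi-C measures contacts and not RNA, so no expression level of either gene is given here, and cell-type markers could not be read.

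In the order of the RefSeq annotation of GRCm38.p6, S100a8 is preceded by 10 other S100 genes of the cluster, from S100a1 and S100a13 beside Chtop to S100a6 and S100a7a. S100a9 follows S100a8 directly, and after it come Pglyrp4, a peptidoglycan recognition gene, and S100a7l2. Further on lies Lor, which encodes loricrin, a structural protein of the outer skin, and S100a11 and S100a10 lie 58 and 59 protein-coding genes beyond S100a8. This annotation is of another build than the scores, so it was used for names and order alone, and no bin was assigned to any of these genes other than S100a8 and S100a9.

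The promoters of both genes are shown because the steep part of the insulation profile runs across the bins that hold them. Each runs from 250 bases before to 50 bases after the annotated start (base 251), 5′ to 3′ on the gene's own strand, with the sequence TATAAA in capitals. They are RefSeq sequences of GRCm38.p6, at chr3:90668821-90669120 (plus strand) for S100a8 and chr3:90695672-90695971 (minus strand) for S100a9, and these positions are not on the mm9 scale of the scores.
S100a8: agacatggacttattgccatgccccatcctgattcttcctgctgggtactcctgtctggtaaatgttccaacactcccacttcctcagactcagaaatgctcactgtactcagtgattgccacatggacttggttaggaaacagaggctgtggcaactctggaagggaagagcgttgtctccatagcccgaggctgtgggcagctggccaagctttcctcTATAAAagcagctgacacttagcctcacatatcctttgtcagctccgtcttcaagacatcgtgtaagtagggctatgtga
S100a9: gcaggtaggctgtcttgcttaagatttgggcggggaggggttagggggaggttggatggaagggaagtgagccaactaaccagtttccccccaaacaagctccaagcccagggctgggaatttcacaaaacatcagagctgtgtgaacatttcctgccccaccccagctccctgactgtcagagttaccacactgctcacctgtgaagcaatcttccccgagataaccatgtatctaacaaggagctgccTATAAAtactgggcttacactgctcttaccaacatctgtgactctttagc
TATAAA began at base 221 of the S100a8 promoter and at base 251 of the S100a9 promoter. Of 32851 promoters of the same length, 13.6% held TATAAA on either strand. Of the 16 promoters in the table for 12 of the 15 listed S100 genes, 5 held it, 1 each of S100a3, S100a4, S100a7l2, S100a8 and S100a9. The letters TTGCNNAA, a pattern bound by C/EBP factors of the myeloid lineage, occurred in the S100a9 window and in no other S100 promoter searched, against 10.8% of all promoters. At that share, 1 match among 16 promoters is not unusual. GATC, the site DpnII cuts, was in neither member's window, against 48.0% of all promoters. A loose pattern of the CTCF core was in neither member's window and, among these genes, in S100a6, against 8.61% of all promoters, so its absence from a single window is the usual case. Both strands were searched, the motifs do not overlap one another, and a match is a run of letters and not a measured site.

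The interval contained a trough of insulation that was among the lowest of the genome in both genotypes. Its boundary, set by the mean profile of all 4 libraries, was the bin from 90540001 to 90560000, which begins 20 kb after the stated gene position. Of 1905 boundaries in the genome it had the lowest score, at -2.82, and the second greatest depth, at 1.82 score units. Depth is the mean of the highest scores within 200 kb on either side, minus the score of the boundary. The median depth of all boundaries was 0.398 in wildtype and 0.375 in knock-out. In each library only 10 or 11 of the 117252 bins of the genome scored lower than the lowest bin of the interval. The interval held 14 of the 49 bins of the genome (28.6%) whose mean score was below -2.

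**Figure D1:**
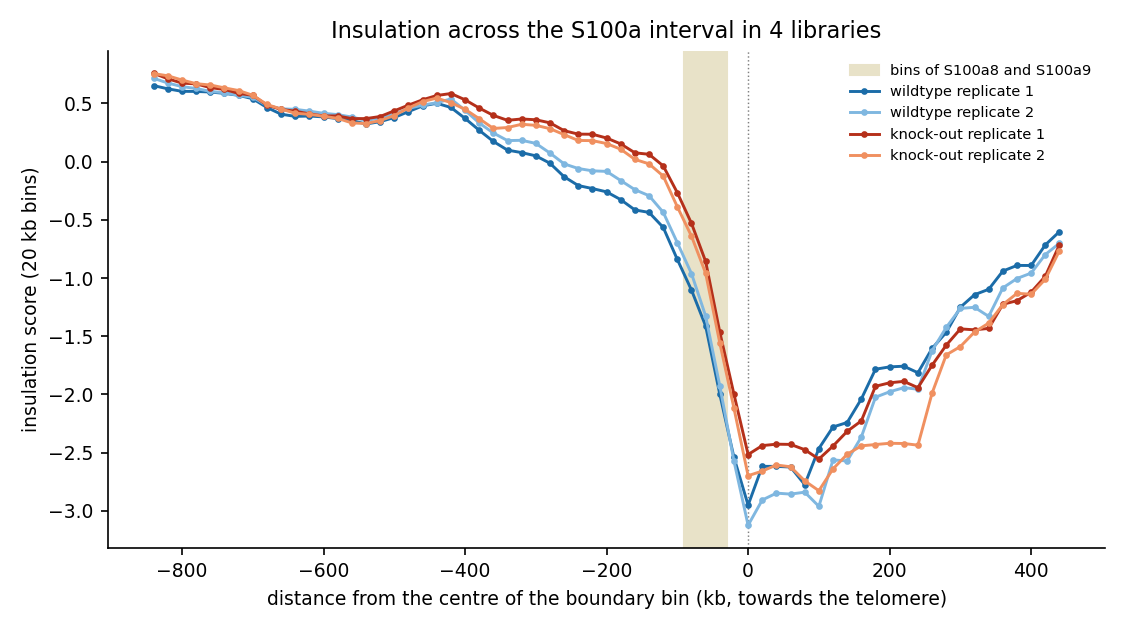
Insulation score of each 20 kb bin of the interval (vertical axis) against distance in kb from the centre of the boundary bin (horizontal axis, positive towards the telomere), 1 line per library, with the bins of S100a8 and S100a9 shaded. The shaded bins lie on the steep proximal wall, where both knock-out lines run above both wildtype lines, and beyond the floor the knock-out lines run below.

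The profile was asymmetric. By the mean of all 4 libraries, 33 bins from 89700001 to 90360000 formed a shoulder with scores above 0, and 8 bins from 90360001 to 90520000 formed a wall between 0 and -2. A floor of 14 bins below -2 ran from 90520001 to 90800000, and a ramp of 10 bins climbed out of it to the end of the interval. S100a8 and S100a9 therefore lay in the lower part of the wall, between a high-scoring domain and the floor.

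The 3 bins of S100a8 and S100a9 scored higher in both knock-out libraries than in both wildtype libraries. Their mean was -1.51 in wildtype replicate 1, -1.41 in wildtype replicate 2, -0.951 in knock-out replicate 1 and -1.05 in knock-out replicate 2. The genotype means were -1.455 ± 0.0704 and -1.002 ± 0.0716 (SD, n = 2), a difference of 0.453. Single pairs of libraries gave differences from 0.353 to 0.554, whereas the libraries of a genotype differed by 0.0995 in wildtype and 0.101 in knock-out. Both knock-out libraries were above both wildtype libraries in each of the 3 bins, as they were in 31.0% of all bins of the genome.

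Although the level differed, the score declined across the gene bins by about the same amount in every library. From the bin at 90460001 to the bin at 90500001 it dropped by 0.895 in wildtype replicate 1, 0.965 in wildtype replicate 2, 0.934 in knock-out replicate 1 and 0.917 in knock-out replicate 2. The mean drops (± SD, n = 2) were 0.930 ± 0.0496 for wildtype and 0.925 ± 0.0124 for knock-out, and the groups overlapped. The steepest step between neighbouring bins of the interval led from the bin at 90480001 to the bin at 90500001 in wildtype replicate 1 and both knock-out libraries, and from 90500001 to 90520001 in wildtype replicate 2. It measured -0.586 and -0.644 in wildtype and -0.607 and -0.598 in knock-out, in replicate order.

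Each bin of the gene position showed the same order of libraries. The bin from 90460001 to 90480000 scored -1.10 and -0.962 in wildtype and -0.531 and -0.641 in knock-out. The bin from 90480001 to 90500000 scored -1.41 and -1.33 in wildtype and -0.858 and -0.959 in knock-out. The bin from 90500001 to 90520000, next to the floor, scored -1.999 and -1.93 in wildtype and -1.46 and -1.56 in knock-out. Within each genotype the replicates differed by at most 0.142, against differences of 0.447, 0.461 and 0.452 between genotypes.

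The difference between genotypes had opposite signs on the 2 sides of the trough. Limma (moderated linear model, Benjamini-Hochberg adjustment over all 117252 bins) called 24 of the 65 bins at an adjusted p below 0.05, with 18 higher and 6 lower in knock-out. In the genome 22.4% of bins were called, 11.2% higher and 11.2% lower. The interval was chosen on this contrast, and nothing is read from its share. Without wildtype replicate 1 the count was 15, with 15 higher and 0 lower, and the 26308 bins called in the genome became 9213, or 9445 without wildtype replicate 2. After each library was divided by its SD the split in the interval was 22 higher and 2 lower, and once a running mean over 51 bins was subtracted limma called 0 bins, in the interval and in the genome, with 45 and 21457 at an unadjusted p below 0.05. The 18 higher bins formed 1 run from 90200001 to 90560000 and included the 3 gene bins. At the proximal edge of that run the difference was 0.131 in the last bin outside (adjusted p = 0.0550) and 0.184 in the first bin inside (adjusted p = 0.0132). At its distal edge the boundary bin itself was inside, at 0.430 (adjusted p = 0.0280), and the next bin was outside, at 0.213 (adjusted p = 0.234).

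The lower bins lay on the ramp, in 1 run of 2 bins from 90840001 to 90880000 and 1 run of 4 bins from 90900001 to 90980000. The bin between these runs differed by -0.196 (adjusted p = 0.0922). The largest difference of either sign was 0.498 in the bin from 90520001 to 90540000, where wildtype scored -2.54 and -2.57 and knock-out -1.998 and -2.12. The most negative was -0.305 in the bin from 90760001 to 90780000, which was not called. Wildtype scored -1.76 and -1.94 there and knock-out -1.89 and -2.42, so the groups overlapped and the knock-out libraries lay 0.534 apart.

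**Figure D2:**
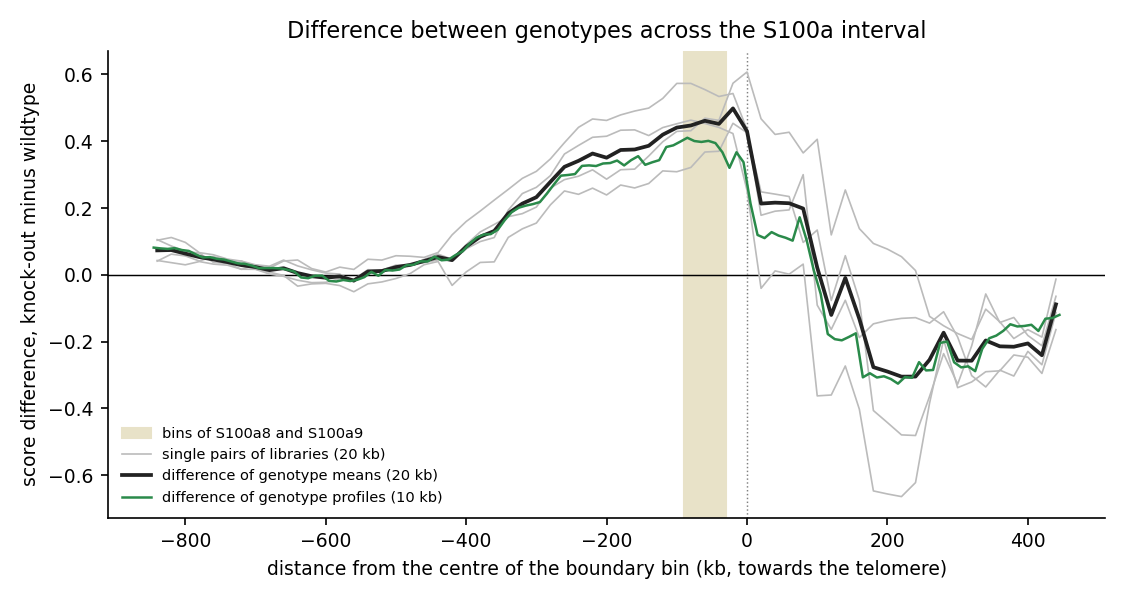
Insulation score of knock-out minus wildtype (vertical axis) against distance in kb from the centre of the boundary bin (horizontal axis), for the means at 20 kb (black), each of the 4 pairs of single libraries (grey) and the 10 kb profiles (green). The difference peaks at 0.498 just before the boundary and turns negative within about 100 kb after it, where the grey lines also spread most.

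Segment by segment, the shoulder scored 0.322 and 0.378 in wildtype and 0.461 and 0.434 in knock-out. The mean of the wall was -0.888 and -0.756 in wildtype and -0.359 and -0.446 in knock-out. On the floor the genotypes overlapped, at -2.30 and -2.54 in wildtype and -2.25 and -2.54 in knock-out. Replicate 2 scored below replicate 1 in both genotypes, and the ending of the library titles differs between the replicates in the same way. There the difference of the means, 0.0254, was smaller than the range within either genotype, which was 0.231 in wildtype and 0.292 in knock-out. On the ramp both knock-out libraries, at -1.29 and -1.34, scored below both wildtype libraries, at -1.06 and -1.14. This order held in each of its 10 bins, against 34.8% of all bins of the genome. Over the whole interval these parts largely cancelled, with a mean difference of 0.0745 that became 0.0271 if knock-out replicate 1 was omitted and 0.122 if knock-out replicate 2 was, and turned to -0.0211 once the running mean was subtracted.

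Read as positions, the same score differences placed both walls of the trough further towards the telomere in knock-out, by the means. This restates the differences above and is not a separate result. On the proximal side, moving outwards from the boundary bin, the score passed -1 at -87.9 and -77.9 kb from the centre of that bin in wildtype, and at -55.3 and -58.6 kb in knock-out, where negative values lie towards the centromere. The knock-out mean lay 25.9 kb closer to the boundary, about the width of a bin, and the positions are interpolated between bin centres. At -1.5 the displacement was 15.3 kb and at -2 it was 16.8 kb, whereas the score of 0, on the gentle upper slope, was displaced by 135.5 kb. The 10 kb profiles gave 34.2 kb at -1, 15.5 kb at -1.5, 17.6 kb at -2 and 108.9 kb at 0. At -0.5 the displacement was 35.9 kb at 20 kb and 54.7 kb at 10 kb. At each of the 5 levels read on this wall, from 0 to -2, both knock-out libraries crossed nearer to the boundary than both wildtype libraries.

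On the distal side the score passed -1 at 352.4 and 381.9 kb beyond the boundary centre in wildtype and at 417.8 and 420.9 kb in knock-out, a displacement of 52.2 kb. At -1.5 the positions were 275.1 and 272.5 kb in wildtype and 291.0 and 314.2 kb in knock-out. At -2 the groups overlapped, with 163.0 and 190.1 kb in wildtype and 175.3 and 259.5 kb in knock-out. At -0.5 the positions were 460.7 and 482.1 kb in wildtype and 495.7 and 504.6 kb in knock-out. The shift was thus in the same direction as on the proximal side at each of the 4 distal levels by the means, and at 3 of them without overlap. Its size depended on the bin size. At -1 it was 30.0 kb between the 10 kb profiles against 52.2 kb at 20 kb, at -1.5 it was 54.8 kb against 28.8 kb, and at -2 it was 27.6 kb against 40.8 kb, so the levels are not ranked by it. At -0.5 no 10 kb value was obtained for knock-out.

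At 20 kb the lowest bin lay at the proximal end of the floor in wildtype and in its middle in knock-out. In both wildtype libraries it was the bin from 90540001 to 90560000, at -2.95 and -3.12, lower than any other bin within 100 kb by 0.176 and 0.162. In both knock-out libraries it was the bin from 90640001 to 90660000, 100 kb further on, at -2.55 and -2.83. The knock-out floor was shallow in relief. The bin at 90540001 scored 0.0391 and 0.129 above that minimum in knock-out replicates 1 and 2, so its position rests on small differences. At 10 kb no displacement was seen, since the lowest bin was the one from 90570001 to 90580000 in both genotype profiles, at -2.76 in wildtype and -2.65 in knock-out. In the 10 kb wildtype profile the second lowest bin, at 90620001, was only 0.0141 higher.

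At the fixed position of 90540001 the boundary was shallower in knock-out. Wildtype replicates 1 and 2 had depths of 1.94 and 2.09, and the knock-out replicates 1.67 and 1.57. The means were 2.02 ± 0.109 and 1.62 ± 0.0716 (SD, n = 2), a difference of -0.399 without overlap. It was -0.142 with flanks of 100 kb in place of 200 kb. Between the 10 kb profiles it was -0.102, read at another position, their lowest bin from 90570001 to 90580000. With 2 libraries a genotype, the smallest two-sided p of an exact permutation test is 0.333, and none is claimed. In score units this was the largest loss among the 1905 boundaries, ahead of -0.364 and -0.346 for the next. The rank depended on how loss was measured. With the depth of each library taken at its own minimum within 100 kb, the difference was -0.245 and ranked 12 of 1899. As a ratio, knock-out kept 80.2% of the wildtype depth at the fixed bin, against a median of 95.2% over all boundaries, and this ranked 251 of 1905. At each library's own minimum it kept 87.8%. Of all boundaries, 61.3% were shallower in knock-out at their fixed position.

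**Figure D3:**
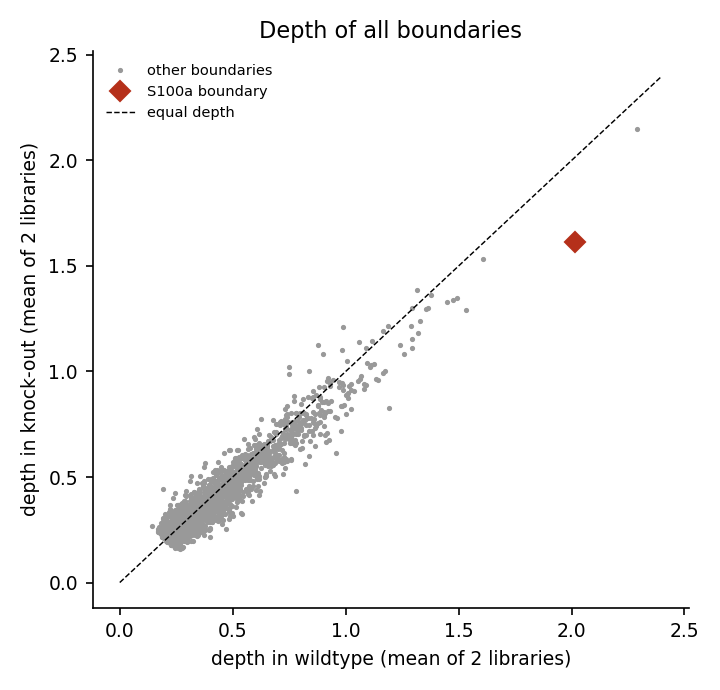
Depth of each of 1905 boundaries in score units, wildtype on the horizontal and knock-out on the vertical axis, each the mean of 2 libraries, with the dashed line marking equal depth. The S100a boundary, at 2.02 and 1.62, is the second deepest and lies below the line.

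Measured at the fixed boundary bin with flanks of 200 kb, the difference in depth lay on the distal side. In every library the highest distal score was that of the last bin of the window, from 90740001 to 90760000. That bin still lay on the floor, so this rise did not reach the ramp. On the proximal side too the highest score was that of the outermost bin, from 90340001 to 90360000, in every library. Scores rose further beyond it, so both rises depend on the length of the flank. The rise from the boundary bin to the highest score within 200 kb on the proximal side was 2.69 and 3.04 in wildtype and 2.72 and 2.85 in knock-out, which overlap. The rise on the distal side was 1.19 and 1.15 in wildtype and 0.616 and 0.278 in knock-out. Its mean (± SD, n = 2) was 1.17 ± 0.0291 for wildtype against 0.447 ± 0.239 for knock-out. The difference of -0.720 became -0.551 if knock-out replicate 2 was omitted and -0.888 if knock-out replicate 1 was omitted. The boundary bin and the highest proximal bin of the window were both higher in knock-out, by 0.430 and 0.351, so that the heights between them overlapped. Measured from each library's own minimum the pattern was the reverse. The distal rise was then 1.17 ± 0.0291 in wildtype and 1.18 ± 0.0849 in knock-out, and the proximal rise 2.86 ± 0.246 and 2.36 ± 0.107 (SD, n = 2). In knock-out the own minimum lay 100 kb further on, and the windows moved with it. Their proximal part then ended on the wall, at the bin from 90440001 to 90460000. The distal part reached the ramp, up to the bin from 90840001 to 90860000. The side of the difference thus depends on where the windows fall.

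**Figure D4:**
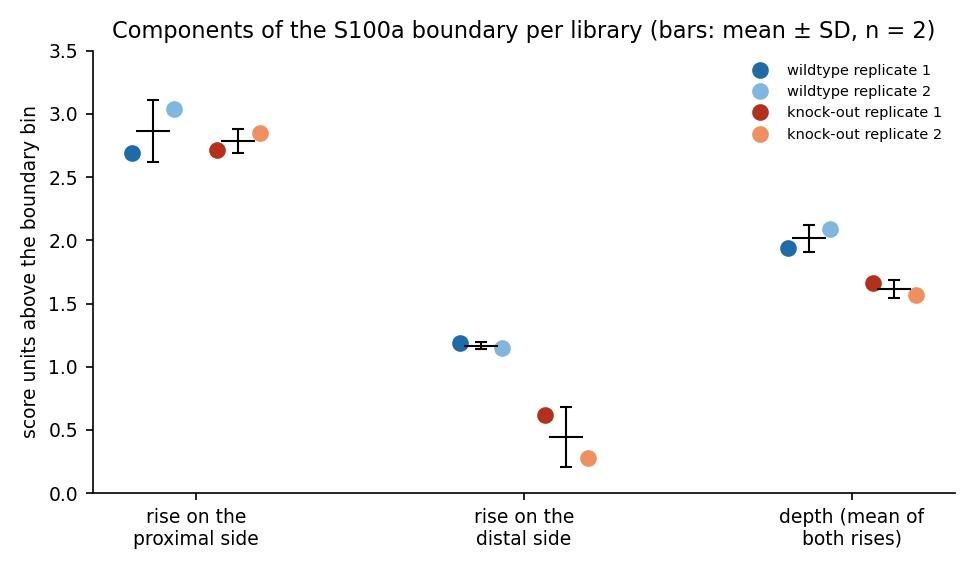
Rise in score from the boundary bin to the highest bin within 200 kb on each side, and depth as the mean of both rises (vertical axis, score units), 1 point per library, with bars at the mean ± SD of 2 libraries. The genotypes overlap on the proximal side and are apart on the distal side, where knock-out lies at 0.616 and 0.278 against 1.19 and 1.15.

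The domains on either side of the boundary differed from wildtype in opposite directions. The proximal domain ran for 1500 kb to the next boundary, the bin from 89020001 to 89040000, and its 75 bins averaged 0.408 and 0.474 in wildtype and 0.600 and 0.575 in knock-out. The difference was 0.146, and both knock-out libraries were above both wildtype libraries in 65 of its 75 bins, against 31.0% of all bins of the genome. The distal domain ran for 1480 kb, to the boundary from 92040001 to 92060000, and its 69 scored bins averaged -0.861 and -0.944 in wildtype and -0.992 and -1.10 in knock-out. That difference was -0.143, and both knock-out libraries were below both wildtype libraries in 37 of 69 bins, against 34.8% of all bins. It was -0.0894 without knock-out replicate 2. These shares include the interval that was chosen for its difference. The contrast between both domains, already large in wildtype, was thus wider in each knock-out library than in either wildtype library. Over the bins of the genome scored in all libraries, the SD was also larger in knock-out, at 0.452 and 0.464, than in wildtype, at 0.432 and 0.438. Whether this spread underlies the wider contrast was not tested.

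The next boundaries on both sides were weak, and the genotypes overlapped in both. The proximal neighbour had a depth of 0.282 and 0.228 in wildtype and 0.242 and 0.251 in knock-out. The distal neighbour had a depth of 0.225 and 0.266 in wildtype and 0.285 and 0.226 in knock-out. At 10 kb the proximal neighbour was found at 89030001, next to its 20 kb position, whereas the distal one was found at 92870001, so the extent of the distal domain depended on the bin size. No bin of the interval lacked a score, but 5 bins of the distal domain lacked one in at least 1 library, the nearest of them at 91020001.

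The 10 kb profiles, 1 per genotype and with no replicate, showed the same reversal of sign. The 5 bins of 10 kb from 90470001 to 90520000 averaged -1.51 in wildtype and -1.12 in knock-out, a difference of 0.392. Across these bins the score declined from -1.16 to -1.98 in wildtype and from -0.757 to -1.61 in knock-out. The largest difference, 0.410, was in the bin from 90460001 to 90470000, the fifth largest of all 227822 bins, and the most negative, -0.326, in the bin from 90760001 to 90770000. The first bin beyond the boundary that scored lower in knock-out began at 90650001 at 10 kb and at 90660001 at 20 kb. On the floor the 10 kb profiles differed by -0.0533, against 0.0254 at 20 kb, so no direction is given for it. Whether they were built from the reads of the 4 libraries is not stated, so they are no independent evidence beside the 20 kb scores, and levels cannot be set against each other across bin sizes.

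The trough coincided with a compartment border in both genotypes. The compartment eigenvector, whose sign divides chromosomes into 2 compartments, was positive in the 200 kb bin from 90400001 to 90600000, which holds S100a8 and S100a9, at 0.0466 in wildtype and 0.0497 in knock-out. Only 2.72% of the 773 bins of chromosome 3 had a higher value in wildtype and 2.46% in knock-out. In the next bin, from 90600001 to 90800000, it was negative, at -0.0193 in wildtype and -0.0110 in knock-out. This step, of -0.0659 in wildtype and -0.0607 in knock-out, was the second largest fall between neighbouring bins among 766 pairs of chromosome 3 in either genotype. The edge between these bins lay 40 kb beyond the insulation boundary, an offset that bins of 200 kb do not resolve. The files do not state which compartment a positive value marks.

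The genes thus stood at the very end of a long positive stretch. Positive values ran over 36 bins from 83400001 to 90600000, and negative values over 12 listed bins from 90600001 to 93200000, with the same limits in both genotypes. Within the interval the eigenvector was higher in knock-out in all 7 bins, by 0.00171 to 0.00824. The widest of these differences was in the first negative bin, which stayed negative. Over chromosome 3 the middle 90% of such differences lay between -0.00743 and 0.00546, with a median of -0.00036. With 1 profile per genotype these values have no replicate check.

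**Figure D5:**
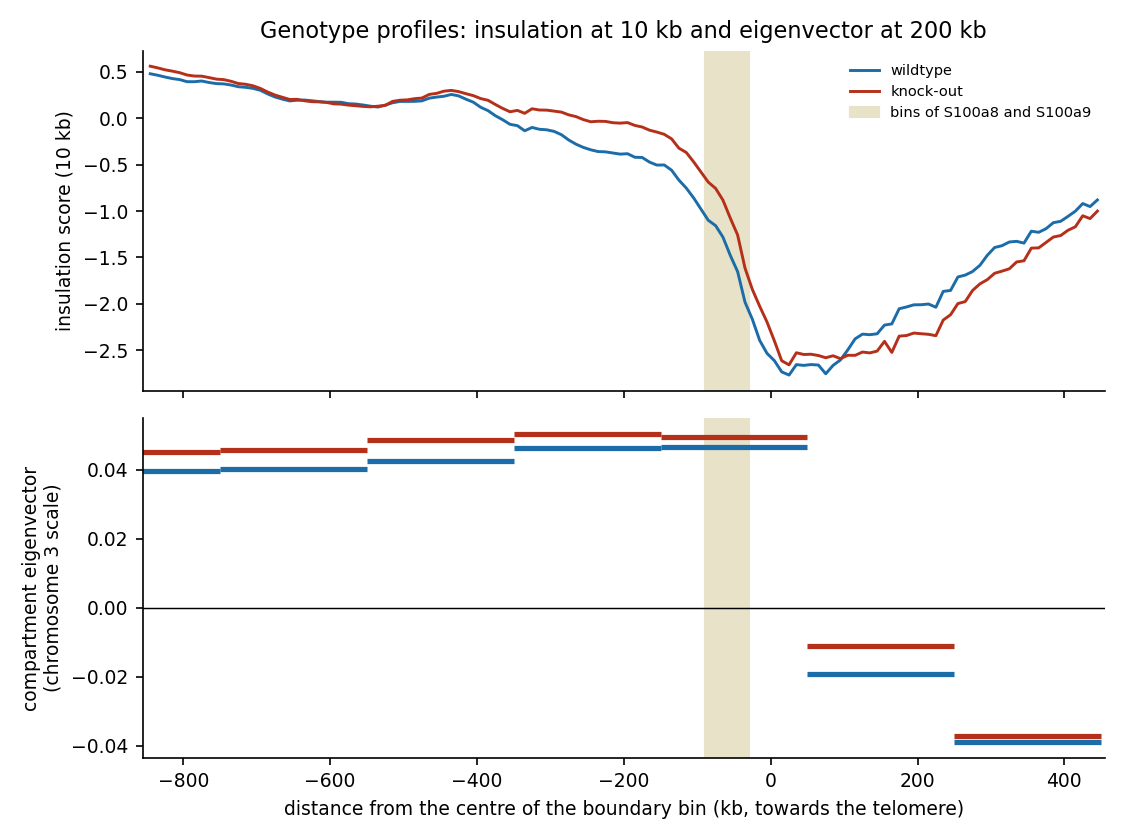
Insulation score at 10 kb (upper panel) and compartment eigenvector at 200 kb (lower panel, scale of chromosome 3) against distance in kb from the centre of the boundary bin, 1 profile per genotype. The eigenvector changes sign in both genotypes just beyond the shaded bins of S100a8 and S100a9, from 0.0466 to -0.0193 in wildtype.

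By depth in the 4 libraries, the boundaries most like that of the S100a cluster were on chromosome 7 from 135940001 to 135960000, chromosome 5 from 134520001 to 134540000 and chromosome 12 from 70180001 to 70200000. Likeness was the Euclidean distance over the 4 depths, which was 0.627, 0.857 and 0.864 score units. Each was shallower than the S100a boundary in wildtype, at 1.61, 1.53 and 1.49, and differed less between genotypes, by -0.0749, -0.244 and -0.145. Because the S100a boundary ranked 1 for loss in score units and 2 for wildtype depth, nothing is read from this. No other boundary of the 1905 came closer than 0.627 by this measure.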

How the data were processed

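The authors deposited insulation scores of single Hi-C libraries in 20 kb bins, and, per the file headers, 1 insulation score profile for each genotype at 10 kb and 1 eigenvector at 200 kb. All are scores on the authors' own scale. Coordinates are mm9, per the submitters' processing notes. Not given in the sources used here were the log base, insulation window, aligner, matrix balancing, pooling and read numbers. The depth of each library is therefore unknown, and counting error could not be estimated. Deposited differences equalled knock-out minus wildtype within 1e-09.

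Groups came from the genotype label, and replicate numbers follow accession order and pair nothing. The per-bin test was limma 3.58.1 in R 4.3.3 (lmFit, eBayes with a trend), tested on simulated data. Boundaries were minima over 200 kb on each side of the 4-library mean with a depth of at least 0.2 and every bin scored. Named were the 2 member genes, their neighbours from a list, the lowest bins, the bins of largest and smallest difference, the edges of called runs, the adjacent boundaries and the 3 boundaries most alike. The interval, members and lists were chosen with earlier results of these data known.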

Additional observations from a re-analysis of the deposited data

How the results depend on the processing

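The difference over the S100a8 and S100a9 bins was positive, and those of the boundary depth and of the distal domain negative, under every alternative run, with values of 0.403 to 0.504, -0.476 to -0.323 and -0.196 to -0.0894 when 1 library was left out. The proximal domain gave 0.113 to 0.179 and the interval 0.0271 to 0.122 in the same way, and the count of called bins ran from 15 to 31. By replicate number, no paired analysis was possible because the replicate numbers are not from the labels and pair no libraries. The endings of the library titles do split the libraries into sets with 1 of each genotype, but their meaning is not given. A fit that allowed for the ending was not run, so its effect on these differences was not tested. After a running mean over 51 bins was subtracted, limma called 0 bins in the interval, with 45 at an unadjusted p below 0.05. The interval then differed by -0.0211, the gene bins by 0.367, the proximal domain by 0.0334 and the distal domain by -0.0565. The cause was not tested. With each library divided by its SD, the gene bins differed by 1.16 SD, the interval by 0.235 SD and the proximal domain by 0.269 SD. The distal domain then differed by -0.207 SD and the boundary depth by -1.10 SD. Here 1 SD was 0.432 and 0.438 score units in wildtype and 0.452 and 0.464 in knock-out, so these values are not on the scale of the others. That scaling left 24 called bins but split them into 22 higher and 2 lower. The depth difference was -0.102 at the boundary bin of the 10 kb profiles, -0.142 with flanks of 100 kb and -0.245 at each library's own minimum. The ranks by ratio and by own minimum were chosen after seeing the data. Unknown depth limits what can be said of the low-scoring floor, where the libraries of a genotype differed most.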
